A study of Drosophila melanogaster with 6 samples.

Results

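The IMD (immune deficiency) pathway genes described here are 9 innate immune genes: the peptidoglycan recognition genes PGRP-LC, PGRP-LF, PGRP-SD, PGRP-LB, PGRP-SB1 and PGRP-SC2, the adaptor gene imd, the inhibitor gene pirk and the transcription factor gene Rel. They were taken by name, through their FlyBase identifiers, from a table of 17633 genes and 127 transposon families, and all 9 were found. The table holds counts of polyA RNA from Drosophila melanogaster ovaries of females 3 to 6 days old, in 6 libraries. Libraries homozygous 1 to 3 had the genotype flamDeltaProm/flamDeltaProm, in which both copies of flamenco (flam), the source of transposon-silencing piRNAs in ovarian follicle cells, lack their promoter. Libraries FM7 1 to 3 had the genotype flamDeltaProm/FM7, in which the same deletion lies over the X balancer FM7. The major autosomes were +/+ in both groups. Every library therefore carried at least 1 deleted copy. The titles of the FM7 libraries name a wild-type chromosome, and the genotype field was followed. All 9 genes lie on autosomes, so none is on the balanced chromosome.

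In flies the IMD pathway detects the diaminopimelic acid type of peptidoglycan found in Gram-negative and some Gram-positive bacteria. PGRP-LC at the cell surface and PGRP-LE inside the cell signal through the adaptor Imd, the caspase Dredd and the kinases Tak1 and IKK to Relish, the NF-kappaB factor encoded by Rel, which then switches on antimicrobial peptide genes. Several inhibitors, among them amidases that digest peptidoglycan and the protein Pirk, are themselves encoded by Relish target genes and hold the response down. The pathway is best known from the fat body, the haemocytes and the gut.

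Library totals ran from 19564819 to 23181058 counts. Levels are given as CPM, counts scaled to library sizes adjusted by the TMM method, and 3 counts correspond to 0.126 to 0.160 CPM. Changes are log2 fold changes of homozygous over FM7 libraries with an SE, tested by edgeR's quasi-likelihood test with Benjamini-Hochberg adjustment over all tested genes and transposon families and a threshold of 0.05. flam itself had 12, 6 and 18 counts in homozygous 1 to 3, against 43, 37 and 41 in FM7 1 to 3 (log2 fold change -1.93, SE 0.39, adjusted p = 0.0119). Germ line markers summed to 2121 to 2342 CPM in homozygous and 2099 to 2366 CPM in FM7 libraries, so the labelled tissue was present in each. FM7 2 stood apart by gut transcripts, described below with PGRP-SC2, and the results that turn on it are given with and without it. The labels do not say whether libraries came from separate pools of flies, so the p-values measure the spread between these libraries, which may be technical. In whole ovaries, fewer cells of a type and less RNA per cell cannot be told apart.

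PGRP-LC, PGRP-LF, PGRP-SB1 and Rel rose in homozygous ovaries, and no member fell. These are 4 of the 8 members that could be tested, beside 11.7% of all 9150 tested genes that were higher and 7.75% that were lower by the same rule. Leaving out homozygous 3 or FM7 1 left 2 members called. The same omissions left 522 and 547 of all genes called higher, in place of 1071. The 709 genes called lower became 314, 225, 286 and 425 when homozygous 2, homozygous 3, FM7 1 and FM7 2 were omitted in turn. At an unadjusted p under 0.05 there was 1 member lower, imd, and DESeq2 and limma-voom called none lower. PGRP-LF, PGRP-SB1 and pirk reached the filter on low counts only through their homozygous libraries, so the share of members called is a description and not a measure of how unusual they are. The median log2 fold change of the 8 was 0.87, beside -0.01 for all tested genes. PGRP-SD was below the filter. The homozygous values lay wholly above the FM7 values for 5 of the 8 tested members and wholly below for 1, beside 21.6% and 20.1% of all tested genes.

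**Figure D1:**
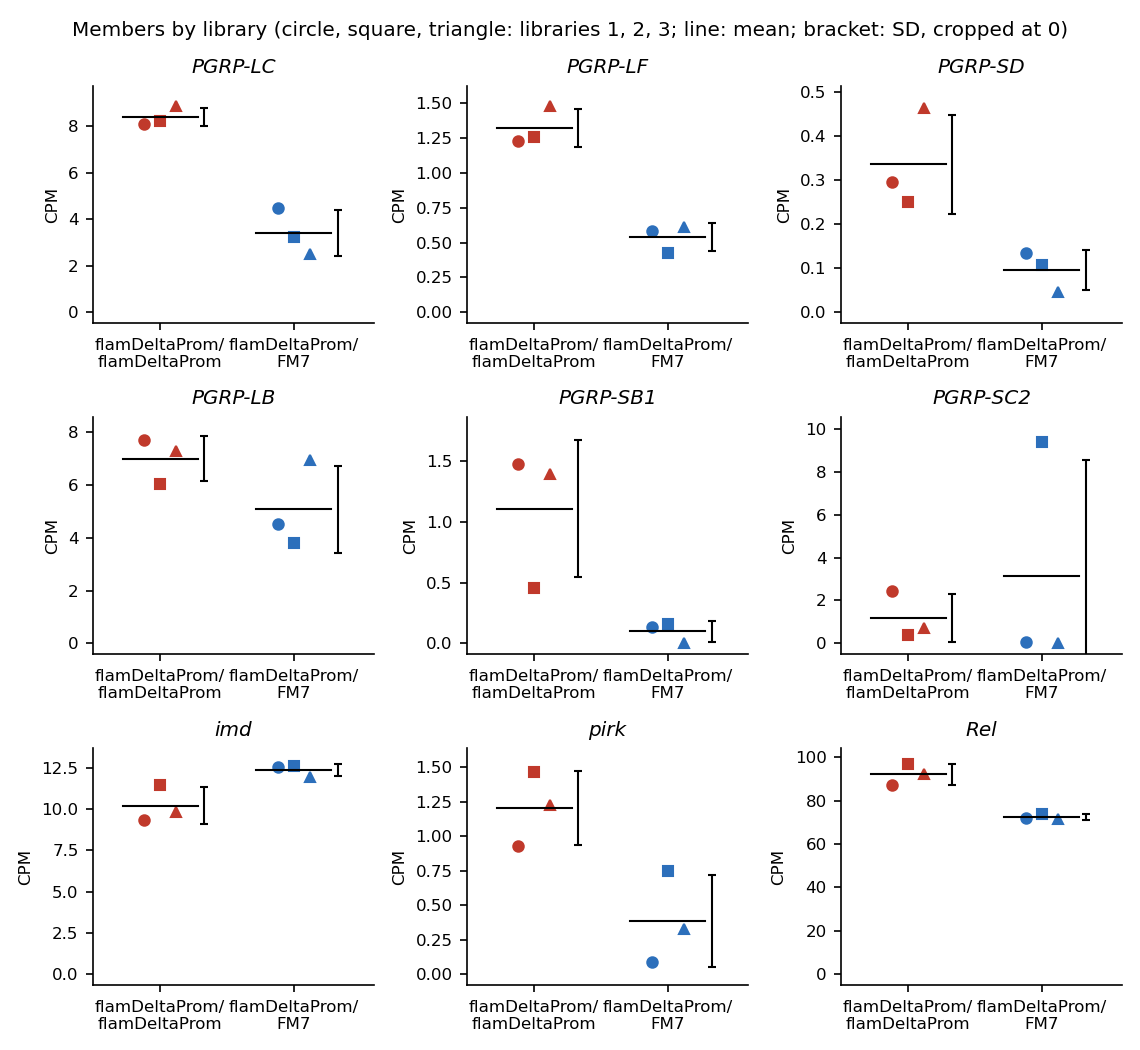
Level of each of the 9 genes in CPM (vertical axes, each with its own range) in the 3 homozygous libraries (left, red) and the 3 FM7 libraries (right, blue), with the group mean as a line and the SD as a bracket, cropped at 0 for PGRP-SC2. PGRP-LC, PGRP-LF, PGRP-SD, PGRP-SB1, pirk and Rel have no overlap and are higher in homozygous libraries, imd has none and is lower there, and PGRP-SC2 is set by 1 FM7 library.

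PGRP-LC (FBgn0035976, 3L, 9338810 to 9348336, plus strand, BDGP6.54) encodes the transmembrane receptor that starts the pathway at the cell surface. It had 8.12, 8.24 and 8.87 CPM in homozygous 1 to 3, against 4.48, 3.25 and 2.53 CPM in FM7 1 to 3. The homozygous libraries lay close together and all above the FM7 libraries, which were more spread out. The rise was 2.45-fold (95% interval 1.72 to 3.50, log2 fold change 1.29, SE 0.22, adjusted p = 0.00658). Leaving out any 1 of the 6 libraries kept the call, and the largest adjusted p, 0.0348, came from omitting homozygous 3. Splice forms of this gene encode receptors with different recognition domains, and counts per gene do not separate them.

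PGRP-LF (FBgn0035977, 3L, 9349609 to 9351489, plus strand) is the next gene downstream of PGRP-LC, starting 1273 bases after its end. It encodes a membrane protein that binds no peptidoglycan and blocks PGRP-LC, and so counts as an inhibitor. It had 29, 30 and 35 counts in homozygous 1 to 3, against 13, 8 and 13 in FM7 1 to 3. As CPM these were 1.23, 1.26 and 1.48 in homozygous and 0.583, 0.426 and 0.609 in FM7 libraries, again without overlap. The rise was 2.42-fold (95% interval 1.496 to 3.92, log2 fold change 1.28, SE 0.31, adjusted p = 0.0220), close in size to that of the receptor gene. The log2 fold change stayed between 1.13 and 1.37 whichever library was left out. The call was lost on omitting homozygous 2, homozygous 3, FM7 1 or FM7 2, at adjusted p of 0.0610, 0.0931, 0.0760 and 0.0703 in turn. The exons of PGRP-LF share 602 bases with UGP on the other strand. UGP was at 193 ± 3.15 CPM in homozygous and 196 ± 3.54 CPM in FM7 libraries (SD, n = 3 each, log2 fold change -0.03, SE 0.05), and the strand setting of the counting is unknown here, so reads of the pair may be mixed.

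PGRP-LA, the gene on the other side of PGRP-LC, ends 474 bases before it on the same strand and encodes a membrane protein reported to activate the pathway without binding peptidoglycan. It had 4.44, 4.64 and 4.65 CPM in homozygous 1 to 3, against 3.72, 3.20 and 1.45 CPM in FM7 1 to 3. All homozygous values lay above the FM7 values, yet with a log2 fold change of 0.71 (SE 0.33) the adjusted p was 0.155.

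PGRP-SD (FBgn0035806, 3L, 7651180 to 7651900, plus strand) encodes a secreted recognition protein that carries peptidoglycan to PGRP-LC. It was barely detected, with 7, 6 and 11 counts in homozygous 1 to 3, against 3, 2 and 1 in FM7 1 to 3. The homozygous libraries were all higher, and the ratio of the summed counts, 24 in homozygous against 6 in FM7 libraries, was 3.51 (exact 95% interval 1.40 to 10.5, counting error only). With no filter on low counts edgeR gave a log2 fold change of 1.74 with an adjusted p of 0.102. Its exons share 35 bases with CG7492 on the other strand, at 101.4 ± 1.39 CPM in homozygous and 101.2 ± 8.65 CPM in FM7 libraries (SD, n = 3 each). PGRP-SD lies within the span of CG32373 on the same strand without sharing exon bases. CG32373 was itself higher, at 7.70 ± 0.978 CPM in homozygous and 3.73 ± 0.306 CPM in FM7 libraries (SD, n = 3 each, log2 fold change 1.04, SE 0.18, adjusted p = 0.00625 by edgeR), and its part in the PGRP-SD counts was not tested.

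PGRP-LB, PGRP-SB1 and PGRP-SC2 encode amidases, enzymes that cut peptidoglycan and so remove the signal, and the 3 genes behaved differently. PGRP-LB (FBgn0037906, 3R, 11452849 to 11460552, minus strand) is known as a main brake on the pathway in the gut and fat body. It had 7.70, 6.02 and 7.26 CPM in homozygous 1 to 3, against 4.53, 3.78 and 6.94 CPM in FM7 1 to 3. FM7 3 lay within the homozygous range, and the log2 fold change of 0.46 (SE 0.24, adjusted p = 0.212) was not past the threshold. Its 95% interval ran from 0.936-fold to 2.02-fold. Without FM7 replicate 3 the log2 fold change was 0.74 and past the threshold (adjusted p = 0.0443).

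PGRP-SB1 (FBgn0043578, 3L, 16727299 to 16727989, minus strand), which encodes a secreted amidase, had 35, 11 and 33 counts in homozygous 1 to 3, against 3, 3 and 0 in FM7 1 to 3. Homozygous 2 had less than the other homozygous libraries but more than any FM7 library. In CPM the homozygous libraries averaged 1.11 ± 0.565 and the FM7 libraries 0.0981 ± 0.0859 (SD, n = 3 each). The fitted rise of 10.9-fold (95% interval 3.27 to 36.6, log2 fold change 3.45, SE 0.76, adjusted p = 0.0157) was the largest of the tested members. The call was lost without homozygous replicate 3 (adjusted p = 0.0693) and without FM7 replicate 1 (adjusted p = 0.0585).

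PGRP-SC2 (FBgn0043575, 2R, 8716950 to 8717695, plus strand), known as an amidase of the gut, had 58, 9 and 17 counts in homozygous 1 to 3, against 1, 176 and 0 in FM7 1 to 3. FM7 2 held nearly all of the FM7 counts, so the means of the groups say little. With all libraries the log2 fold change was -1.39 (SE 2.05, adjusted p = 0.674). Without FM7 replicate 2 it was 5.38 (adjusted p = 0.0439). That contrast set 84 counts in homozygous libraries against 1 in FM7 1 and 3, a ratio of 51.5 (exact 95% interval 8.99 to 2057, counting error only).

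FM7 2 was also the library with the most gut transcripts. Each of the 9 gut markers had its highest level there, though lab and Jon25Bi had at most 6 counts in any library, and their summed level was 1.90 to 5.71 CPM in homozygous libraries, against 0.269, 102 and 0.656 CPM in FM7 1 to 3. The trypsin gene alphaTry had 61, 25 and 4 counts in homozygous 1 to 3, against 4, 550 and 3 in FM7 1 to 3. PGRP-SC1a, a gut amidase gene of the same cluster on 2R, had 2, 2 and 0 counts in homozygous 1 to 3, against 0, 363 and 2 in FM7 1 to 3. PGRP-SC1b, its near-identical copy with which it may share reads, had 1, 0 and 0 in homozygous and 1, 163 and 0 in FM7 libraries. All PGRP-SC genes thus had their highest level in the library with the highest gut marker sum. Unlike its neighbours, PGRP-SC2 also had 9 to 58 counts in the homozygous libraries. It was at 2.45, 0.377 and 0.718 CPM in homozygous 1 to 3, where the gut marker sums were 5.71, 3.43 and 1.90 CPM. Homozygous 1 was highest for both, while homozygous 2 and 3 stood in opposite order. Of 3 tested gut markers, none was past the threshold with all libraries by edgeR, DESeq2 or limma-voom (0 at an unadjusted p under 0.05 by edgeR), and 2 were higher without FM7 replicate 2. The part of gut RNA in the PGRP-SC2 counts was not tested. PGRP-SC1a, PGRP-SC1b and alphaTry were chosen for mention after their values were seen.

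**Figure D2:**
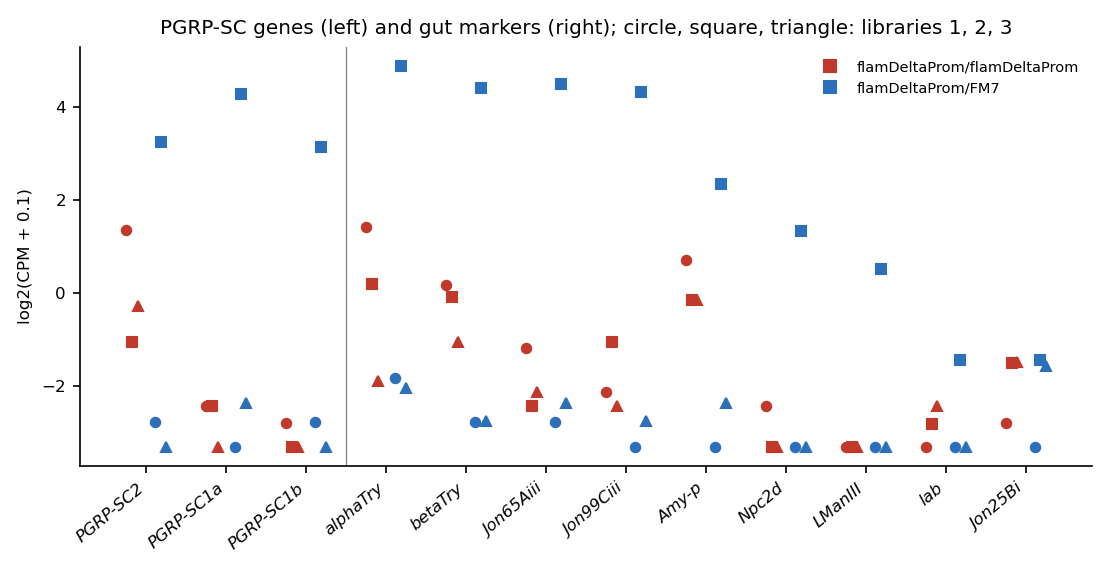
Level of the 3 PGRP-SC genes (left of the line) and of 9 gut markers (right), as log2 of CPM with 0.1 added, in homozygous libraries (red) and FM7 libraries (blue), with circle, square and triangle for libraries 1, 2 and 3. FM7 2 (blue squares) is the highest point for every gene shown.

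imd (FBgn0013983, 2R, 18409796 to 18413599, minus strand) encodes the adaptor that gives the pathway its name. It had 9.34, 11.5 and 9.84 CPM in homozygous 1 to 3, against 12.5, 12.6 and 11.95 CPM in FM7 1 to 3. Every homozygous library was below every FM7 library, but the log2 fold change of -0.28 (SE 0.11) had an adjusted p of 0.120. It was not past the threshold under any alternative tried. The exons of imd share 40 bases with GstE9 on the other strand, which was at 14.7 ± 4.53 CPM in homozygous and 13.0 ± 2.05 CPM in FM7 libraries (SD, n = 3 each).

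pirk (FBgn0034647, 2R, 21660967 to 21662995, minus strand) encodes a protein that binds Imd and the PGRP-LC tail and breaks up the receptor complex. It had 22, 35 and 29 counts in homozygous 1 to 3, against 2, 14 and 7 in FM7 1 to 3. The lowest homozygous value, 0.930 CPM, was above the highest FM7 value, 0.746 CPM. With a log2 fold change of 1.66 (SE 0.58) the adjusted p was 0.0740. That highest FM7 value came from FM7 2, and without FM7 replicate 2 the log2 fold change was 2.51 and past the threshold (adjusted p = 0.0230). The adjusted p over all alternatives ran from 0.0230 to 0.203.

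Rel (FBgn0014018, 3R, 9044183 to 9047977, minus strand) encodes Relish, and was the most abundant member and the one whose change had the smallest SE. It had 87.4, 97.0 and 92.0 CPM in homozygous 1 to 3, against 71.9, 73.9 and 71.5 CPM in FM7 1 to 3. The groups were well separated and the FM7 libraries almost level. The rise was 1.27-fold (95% interval 1.17 to 1.39, log2 fold change 0.35, SE 0.06, adjusted p = 0.00506), and the call held whichever of the 6 libraries was left out (largest adjusted p 0.0286). The rise of Rel was thus small and well determined, and that of PGRP-SB1 large and poorly determined. Nmdmc lies within the span of Rel on the same strand without shared exon bases, and it was at 34.5 ± 1.76 CPM in homozygous and 38.0 ± 6.78 CPM in FM7 libraries (SD, n = 3 each).

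Levels of different genes were compared per length, as CPM per kilobase of annotated exon. Rel stood highest in both groups, at 26.3 ± 1.38 in homozygous and 20.7 ± 0.357 in FM7 libraries, followed by imd at 6.73 ± 0.730 in homozygous and 8.15 ± 0.242 in FM7 libraries (SD, n = 3 each). In homozygous libraries PGRP-LB (3.94 ± 0.489) and PGRP-LC (2.25 ± 0.108) came next, each apart from its neighbours above. PGRP-LF (0.974 ± 0.102) lay wholly below PGRP-LC. PGRP-SB1 (1.78 ± 0.908) and PGRP-SC2 (1.58 ± 1.49) had means between those of PGRP-LC and PGRP-LF, but each had a range that overlapped both. pirk (0.654 ± 0.145) and PGRP-SD (0.468 ± 0.156) had the lowest means, both wholly below PGRP-LF, and overlapped each other. In FM7 libraries PGRP-LB was at 2.86 ± 0.929, PGRP-LC at 0.914 ± 0.264, PGRP-LF at 0.398 ± 0.0731, pirk at 0.210 ± 0.180, PGRP-SB1 at 0.157 ± 0.138 and PGRP-SD at 0.133 ± 0.0620. The last 4 of these overlapped neighbour by neighbour. PGRP-SC2 averaged 4.21 in FM7 libraries with FM7 2 and 0.0300 without it, and so had no stable place in the order.

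**Figure D3:**
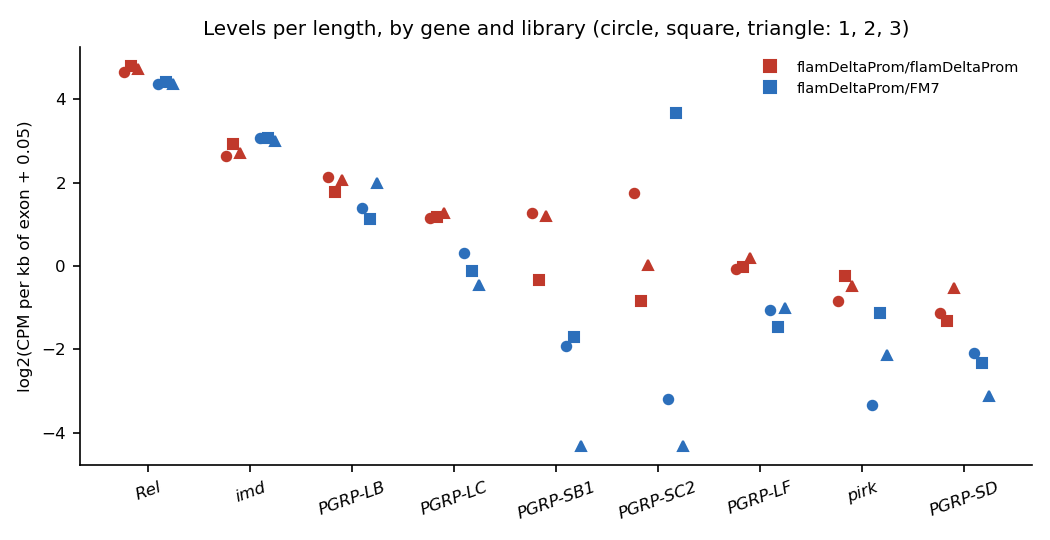
Level of each gene per kilobase of exon, as log2 of CPM per kilobase with 0.05 added, in homozygous libraries (red) and FM7 libraries (blue), with circle, square and triangle for libraries 1, 2 and 3 and genes ordered by their homozygous mean. Rel and imd stand above the recognition genes in both groups, apart from PGRP-SC2 in FM7 2.

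The other IMD pathway genes, 41 from lists by role, had 6 of 34 tested members higher and 1 lower, beside 11.7% and 7.75% of all tested genes, and a median log2 fold change of 0.08. Among 7 other PGRP genes, 2 of 4 tested were higher and none lower by edgeR, DESeq2 or limma-voom or at an unadjusted p under 0.05. PGRP-SA, the secreted receptor of the Toll pathway, had 49, 40 and 69 counts in homozygous 1 to 3, against 5, 4 and 4 in FM7 1 to 3. That rise (log2 fold change 3.38, SE 0.37, adjusted p = 0.00102) resembled that of PGRP-SB1 in size, with a smaller SE. Like PGRP-SB1, PGRP-SA reached the filter on low counts only through its homozygous libraries. PGRP-LE, the receptor inside the cell, was abundant and rose, with 52.0 ± 1.05 CPM in homozygous and 43.6 ± 1.42 CPM in FM7 libraries (SD, n = 3 each, log2 fold change 0.25, adjusted p = 0.0119 by edgeR). PGRP-SA and PGRP-LE lie on the X, where the groups differ by the balancer. PGRP-LD, a membrane protein gene, was at 89.8 ± 1.51 CPM in homozygous and 82.8 ± 4.63 CPM in FM7 libraries (SD, n = 3 each), without a call (adjusted p = 0.174 by edgeR, log2 fold change 0.12).

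The genes between receptor and Relish gave no call by edgeR with all libraries. Of 11 genes of the signalling core, edgeR and limma-voom called none in either direction and DESeq2 called 1, eff, lower. With 11 genes, such counts are near the shares of all tested genes, 11.7% higher and 7.75% lower by edgeR. At an unadjusted p under 0.05 edgeR had 1 lower, also eff, and 0 higher. Without FM7 replicate 3 edgeR called 1 higher, Tab2, the gene of the Tak1 partner. The median log2 fold change was -0.02. The 95% interval of Dredd, the caspase that cleaves Relish, ran from 0.885-fold to 1.08-fold, and that of Tak1, the kinase above IKK, from 0.975-fold to 1.15-fold. eff, a ubiquitin-conjugating enzyme gene, was at 718 ± 34.7 CPM in homozygous and 854 ± 104 CPM in FM7 libraries (SD, n = 3 each, log2 fold change -0.25, adjusted p = 0.0899 by edgeR). Uev1A, a ubiquitin-conjugating enzyme variant gene, had a log2 fold change of -0.08. Dredd and Tak1 lie on the X, and with Tab2 they were chosen for mention after their values were seen.

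Of 12 negative regulators, 1 was higher and 1 lower, with a median log2 fold change of 0.04. These counts are near the shares of all tested genes, 11.7% higher and 7.75% lower. Charon, also called pickle, which encodes a nuclear ankyrin-repeat protein that acts with Relish, was at 33.03 ± 0.605 CPM in homozygous and 27.5 ± 1.31 CPM in FM7 libraries (SD, n = 3 each, log2 fold change 0.26, adjusted p = 0.0202 by edgeR). Omitting homozygous 2, homozygous 3 or FM7 2 removed its call (adjusted p up to 0.0702). cad, a homeobox gene that restrains peptide genes in the gut and is supplied to the egg by the mother, was slightly lower (log2 fold change -0.17, SE 0.05, adjusted p = 0.0445). The cad call held only when FM7 3 was the library left out, and omitting homozygous 3 gave the largest adjusted p, 0.174. With library sizes alone cad had a log2 fold change of -0.09 (adjusted p = 0.292). The deubiquitinase gene scny and the Fas-associated factor gene casp, both abundant, had log2 fold changes of -0.02 and -0.08.

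Peptide genes that Relish activates had 3 of 7 tested members higher and none lower, with a median log2 fold change of 1.57. No tested member was lower at an unadjusted p under 0.05, or by DESeq2 or limma-voom. Without their homozygous libraries AttB, AttC, AttD, CecA1 and DptA would not have passed the filter on low counts. The number called and the median therefore describe these peptide genes and do not measure how unusual they are. The attacin genes AttD, with 43, 82 and 29 counts in homozygous 1 to 3 against 5, 0 and 1 in FM7 1 to 3, and AttB, with 70, 41 and 30 in homozygous against 7, 7 and 10 in FM7 libraries, were higher in all 6 fits without 1 library. Their log2 fold changes were 4.43 (SE 0.77, adjusted p = 0.00689) and 2.35 (SE 0.41, adjusted p = 0.00694), and that of AttD was 6.15 without FM7 replicate 1, the library with 5 of its 6 FM7 counts. AttC had 352, 38 and 49 counts in homozygous 1 to 3, against 4, 1 and 1 in FM7 1 to 3 (log2 fold change 5.93, adjusted p = 0.0349). Its log2 fold change was 4.18 without homozygous replicate 1, and omitting homozygous 3 or any 1 FM7 library removed its call (adjusted p up to 0.143). AttA, a near-identical copy of AttB with which it may share reads, had a log2 fold change of 0.09, and the drosocin gene Dro one of 0.54, neither past the threshold.

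**Figure D4:**
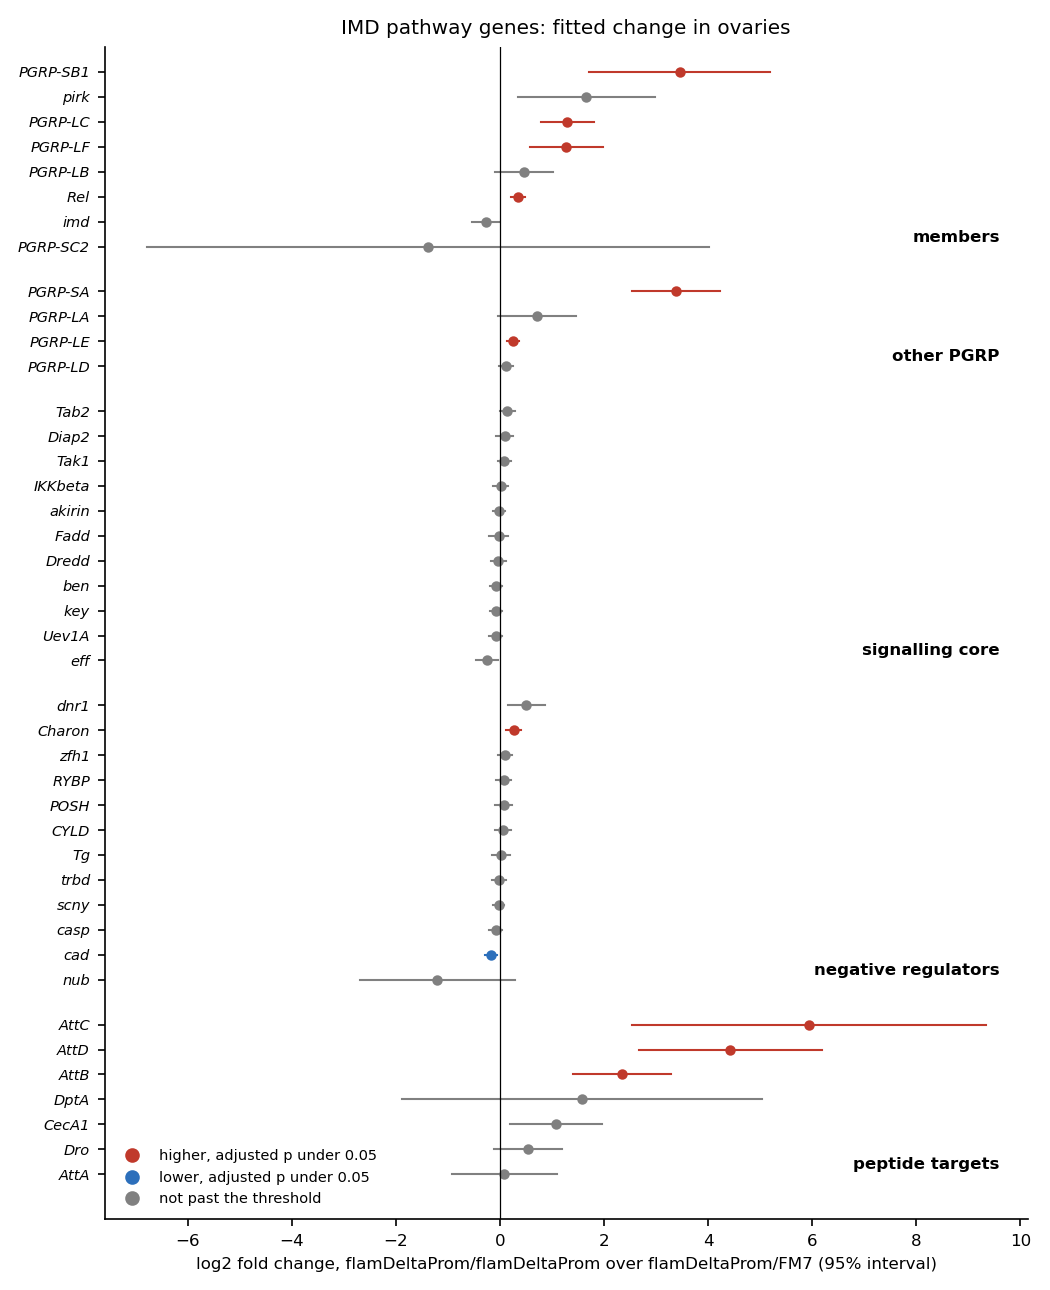
Fitted log2 fold change of homozygous over FM7 libraries (horizontal axis) with its 95% interval for the tested members and the other tested pathway genes by role, with red for higher, blue for lower and grey for not past an adjusted p of 0.05. The signalling core sits near 0 with narrow intervals, and the recognition and peptide genes lie mostly to the right with wide ones.

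The homozygous libraries differed among themselves in the genes of the response. Homozygous 2 was the lowest of the 3 for 8 of the 11 peptide genes and for PGRP-LB, PGRP-SD, PGRP-SB1 and PGRP-SC2. The other 5 members were lowest in homozygous 1. Low values in homozygous 2 were not particular to genes of the response. It was also the lowest for 3 of the 4 follicle cell markers and 7 of the 10 haemocyte markers, with He tied at 0 with homozygous 3. Among the 8 peptide genes, AttA had 49 counts in both homozygous 2 and 3, and CecB and CecC had at most 7 in any library. AttD went the other way, with 43, 82 and 29 counts in homozygous 1 to 3. DptB, a diptericin gene below the filter and chosen for mention after its values were seen, had 122, 9 and 91 counts in homozygous 1 to 3, against 4, 0 and 0 in FM7 1 to 3, the same order of homozygous libraries as PGRP-SB1. Rel, pirk and imd instead had their highest homozygous value in homozygous 2. The homozygous library with the most Rel was thus the one with the least PGRP-SB1.

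Markers of haemocytes, fat body, muscle sheath and Malpighian tubule were mostly higher in homozygous libraries, with the exceptions given here. The gut markers instead peaked in FM7 2. The counts of each list stand beside 11.7% of all tested genes higher and 7.75% lower. The haemocyte markers NimC1, eater and Sr-CI and the fat body marker fit reached the filter only through their homozygous libraries. Haemocyte markers had 7 of 8 tested members higher, and the list of 10 summed to 255 to 297 CPM in homozygous and 211 to 220 CPM in FM7 libraries. Most of that sum was crq, a scavenger receptor gene at 216 ± 7.70 CPM in homozygous and 208 ± 5.45 CPM in FM7 libraries (SD, n = 3 each). Without crq, a choice made after its values were seen, the other 9 summed to 48.2, 49.4 and 77.5 CPM in homozygous 1 to 3, against 5.33, 8.52 and 5.48 CPM in FM7 1 to 3, and He had 3, 0 and 0 counts in homozygous 1 to 3 and 0 in each FM7 library. Homozygous 3, the highest of these, was also the highest homozygous library for PGRP-LC, PGRP-LF and PGRP-SD, while homozygous 1 was the highest for PGRP-LB, PGRP-SB1 and PGRP-SC2, and homozygous 2 for Rel, pirk and imd. The first of these ranks rest on small differences. Homozygous 1 to 3 had 192, 197 and 210 counts of PGRP-LC, 29, 30 and 35 of PGRP-LF and 7, 6 and 11 of PGRP-SD. Fat body markers had 2 of 4 tested members higher and summed to 421 to 560 CPM in homozygous and 287 to 313 CPM in FM7 libraries. Most of that sum was FASN1, a fatty acid synthase gene at 439 ± 85.5 CPM in homozygous and 282 ± 15.7 CPM in FM7 libraries (SD, n = 3 each). Of the 4 markers below the filter, takeout (to) had 0, 2 and 2 counts in homozygous 1 to 3 and 0 in each FM7 library. Fbp1 had 0, 2 and 1 counts in homozygous 1 to 3, against 10, 4 and 4 in FM7 1 to 3, and Fbp2 had 0, 0 and 1 in homozygous 1 to 3, against 7, 1 and 2 in FM7 1 to 3. Lsp1beta had 5, 9 and 13 counts in homozygous 1 to 3, against 8, 2 and 0 in FM7 1 to 3. Lsp2, tested without a call, had 4, 72 and 11 counts in homozygous 1 to 3, against 12, 3 and 4 in FM7 1 to 3. The number of fat body markers higher was 1 without FM7 replicate 1 or 3, and 3 without homozygous replicate 2 or by DESeq2. Muscle sheath markers had 6 of 8 higher, with sums of 376 to 593 CPM in homozygous and 262 to 321 CPM in FM7 libraries. The muscle count by edgeR ran from 0 without FM7 replicate 1 or 3 and 1 without homozygous replicate 2 to 8 without homozygous replicate 1. Of 4 Malpighian tubule markers, 1 of 3 tested, Uro, was higher. The list summed to 31.7 to 43.2 CPM in homozygous libraries, against 2.51, 16.6 and 4.13 CPM in FM7 1 to 3. Most of the sum in homozygous libraries was Uro. It was at 25.5, 38.7 and 34.5 CPM in homozygous 1 to 3, against 2.06, 4.53 and 3.66 CPM in FM7 1 to 3. Fst, with 56, 69 and 6 counts in homozygous 1 to 3 against 0, 206 and 1 in FM7 1 to 3, made up most of the sum in FM7 2. Without homozygous replicate 2 or FM7 replicate 2, 2 tubule markers were higher. The follicle cell markers tj, Vm26Ab and Yp1 were lower and Fas3 higher, and the list summed to 2292 to 3202 CPM in homozygous and 4866 to 5476 CPM in FM7 libraries. The part of these cell types in the changes of PGRP-LC, PGRP-LF, PGRP-SB1 and Rel was not tested.

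For each member that rose, the tested genes with the most similar profile were taken as those with the highest Pearson correlation of log2 CPM over the 6 libraries. For PGRP-LC these were the sugar receptor gene Gr64f (r = 0.9995) and CG13920 (r = 0.997), and for PGRP-LF the 6-phosphofructo-2-kinase gene Pfrx (r = 0.995) and X11Lbeta (r = 0.994). For PGRP-SB1 they were the prophenoloxidase gene PPO3 (r = 0.998) and CG14937 (r = 0.991), and for Rel the stress-response transcription factor gene Xrp1 (r = 0.998) and the channel family gene subdued (r = 0.997). The correlation runs over both genotypes, so a difference between the groups enters it, and such values were common: 591 genes had r above 0.9 with PGRP-LC, 598 with PGRP-LF, 435 with PGRP-SB1 and 831 with Rel. Of the genes named, CG13920 and PPO3 were not themselves past the threshold. The size of the change was not shared either, with log2 fold changes of 1.29 for PGRP-LC and 3.43 for Gr64f, and of 0.35 for Rel and 1.09 for Xrp1.

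**Figure D5:**
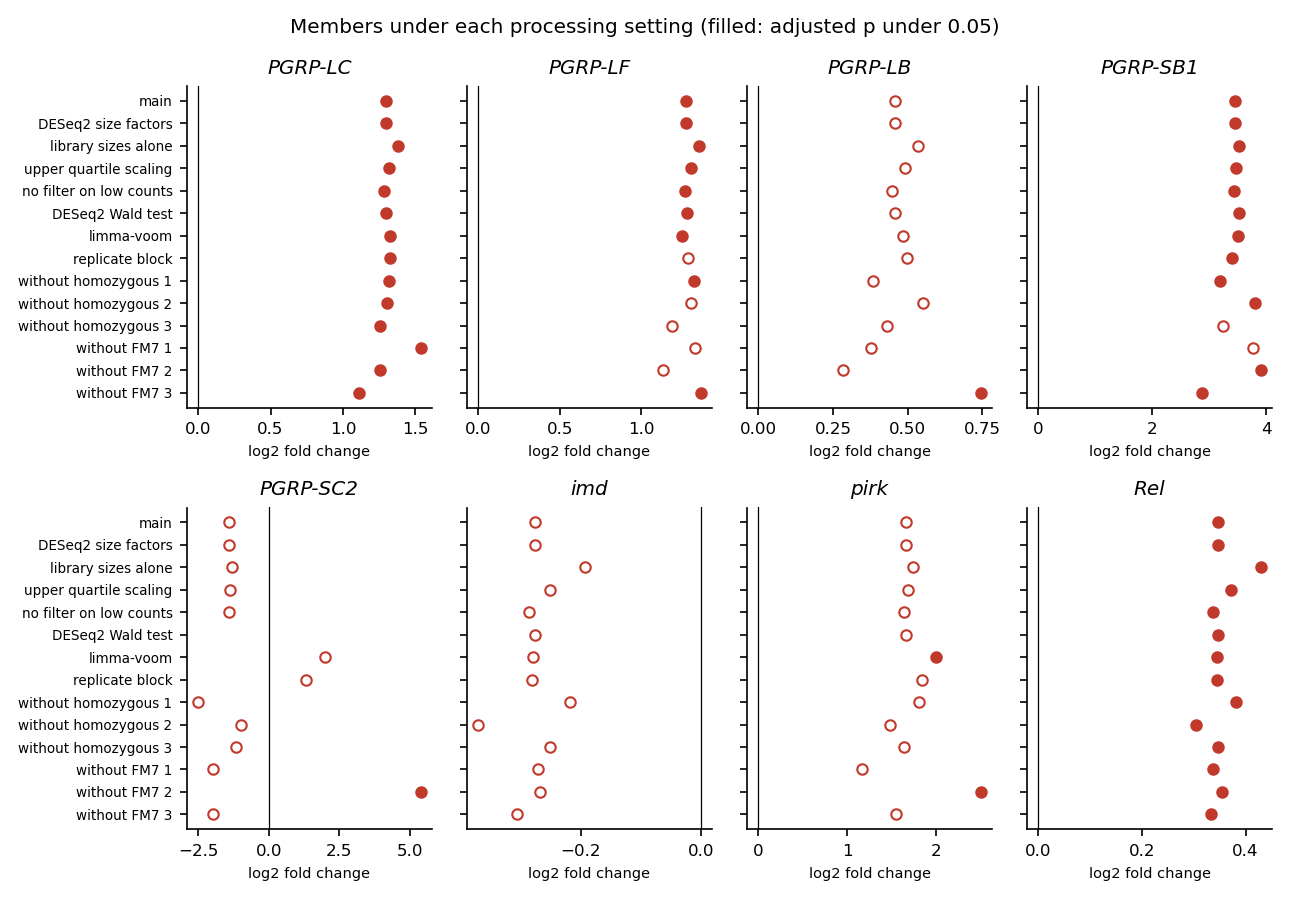
Log2 fold change of homozygous over FM7 libraries (horizontal axes, each with its own range) of the 8 tested members under each way of processing (rows, the reported fit at the top), filled where the adjusted p was under 0.05. PGRP-LC and Rel are filled in every row, and PGRP-SC2 changes sign with limma-voom, with the replicate block and without FM7 replicate 2.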

How the data were processed

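The values deposited by the authors are raw counts, one whole number per library for each gene and each transposon family. TRIzol RNA went into a stranded mRNA protocol, per the labels' protocols. The tools named, with no role or setting, were STAR 2.7.8a, featureCounts 2.0.1 and also DESeq2 1.30.1, per the submitters' processing notes. Which genome build, annotation, strand setting and rule for multi-mapping reads were used is not given in the sources read. Symbols, positions and exon lengths were taken from Ensembl release 115, assembly BDGP6.54, and the authors' build may differ.

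The test was that of edgeR 4.0.16 under R 4.3.3 (TMM, filterByExpr with a minimum count of 10, robust quasi-likelihood), over 9150 genes and 79 transposon families together. Each SE came from the unshrunken coefficient and its F statistic. Correlations used a prior count of 2. The procedure was tested on simulated data. Replicate pairs differed by more than sampling noise (8.18 to 38.9 chi-square units per degree of freedom). Exact intervals of count ratios cover counting error only. Alternatives used DESeq2 1.42.0, limma-voom (limma 3.58.1), other scalings, no filter, a replicate block and each library left out.

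The members and lists were chosen with earlier results of these data known. All 97 listed genes were found, 2 of them by a synonym. Named were all 9 members; per list of other pathway genes, up to 6 genes past the threshold and the 2 most abundant tested genes not past it; and, for each member past it, the 2 most correlated genes.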

Additional observations from a re-analysis of the deposited data

How the results depend on the processing

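PGRP-LC and Rel kept their call and direction under all 13 alternatives, and imd and PGRP-LB were lower and higher without a call, except PGRP-LB without FM7 replicate 3. Without 1 library, the log2 fold change ranged from 0.28 to 0.74 for PGRP-LB, 1.13 to 1.37 for PGRP-LF, 2.87 to 3.91 for PGRP-SB1, 1.17 to 2.51 for pirk and -2.50 to 5.38 for PGRP-SC2. Members called higher then numbered 2 to 5, other pathway genes called lower 0 to 1, and all genes called 522 to 976 higher and 225 to 853 lower. PGRP-SC2 was reversed by limma-voom (2.01), with the replicate block (1.32) and without FM7 replicate 2 (5.38), and DESeq2 gave it no adjusted p. pirk was past the threshold by limma-voom (2.0, adjusted p = 0.0473). Other pathway genes called lower were 0 with library sizes alone, upper quartile scaling or no filter and 2 by DESeq2. With library sizes alone 320 genes were lower, and 1538 were higher. The causes were not tested.

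The labels give both groups replicates 1 to 3 but tie no number to a shared batch, and deviations of same-numbered libraries correlated at -0.30, -0.07 and -0.04, so the numbers were not taken to pair the samples. The largest correlations were those of homozygous 3 with FM7 1 (0.28) and of homozygous 1 with FM7 2 (0.24). With the replicate block 674 genes were higher and 347 lower, other pathway genes called lower were 0, and PGRP-LF had a log2 fold change of 1.29 (adjusted p = 0.0690). PGRP-SD had no row with DESeq2, limma-voom or the block, being below the filter. Depth limits PGRP-SD, PGRP-SB1, PGRP-LF and pirk, with 6 to 34 counts over all FM7 libraries.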
